A study of Mus musculus with 24 samples.

Results

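RNA of 36 genes of the synaptic vesicle and its release machinery was examined in sorted nuclei of the mouse hippocampus. The genes were chosen by symbol from knowledge of the presynaptic terminal. All 36 were among the 55254 genes of both count tables and passed the filter on low counts in every fit. They comprised 5 vesicle membrane proteins, 3 synapsins, 6 synaptotagmins, 4 SNARE proteins, 5 SNARE regulators or disassembly factors, 3 Rab3 GTPases, 8 active zone and priming proteins and 2 vesicular glutamate transporters. The study addressed how loss of the DNA glycosylases Ogg1 and Mutyh, which act on oxidised guanine and on adenine mispaired with it, alters gene expression. All mice were male C57BL/6N aged 6 months, and they were WT, Mutyh-/-, Ogg1-/- or DKO, the cross of both knockouts. How the knockout alleles were built is not given in the sources used here. Hippocampal nuclei pooled from several animals of one genotype were fixed and sorted with an antibody against NeuN, the product of Rbfox3. NeuN+ nuclei were taken as those of neurons and NeuN- nuclei as mainly those of glia. Each of the 8 groups had 3 libraries, 24 in all, with 56563586 to 96192142 counts per library.

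At the terminal, neurotransmitter is packed into vesicles by transporters, and the vesicles are held in a reserve by synapsins. Rab3 GTPases and active zone scaffolds tether them to the release site, where Munc13 proteins, encoded by the Unc13 genes, prime them. Fusion is driven by the SNARE complex of Vamp2, Snap25 and syntaxin, which complexins clamp and which calcium triggers through synaptotagmins. Nsf and the SNAP adaptors, of which Napb encodes the brain form, then take the complex apart. Since the RNA was nuclear, the values are levels of nuclear transcripts and not of protein at the synapse.

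The labels were checked against marker genes. The summed level of 6 neuronal markers was 8491 to 8609.7 counts per 1000000 (CPM) in WT NeuN+ and 757 to 876 in WT NeuN- libraries, and 5 oligodendrocyte markers summed to 110.1 to 114 and 6491 to 7239, each cell type being normalised by itself. No marker was at 0 counts throughout a group. Counts per gene do not show which exons were read and therefore do not check a deletion. In NeuN+, Ogg1 was at 3.04 ± 0.477 CPM in WT (SD, n = 3), 3.15 ± 0.197 with Ogg1-/- and 3.07 ± 0.130 with DKO. Mutyh was at 1.14 ± 0.0738 CPM in WT, 10.1 ± 0.915 in Mutyh-/- and 9.08 ± 1.79 in DKO. With Ogg1-/- Mutyh was at 1.20 ± 0.141 CPM. RNA of the targeted genes was thus not lower, and that of Mutyh was higher in libraries labelled Mutyh-/- and DKO. In NeuN-, Mutyh was likewise at 10.3 ± 0.239 CPM in Mutyh-/- and 8.67 ± 1.43 in DKO, against 2.84 ± 0.233 in WT. Genotypes are given below as the libraries were labelled. The sample labels and column headers name no sequencing lane. Any batch that went with the sort cannot be told apart from the cell type.

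Promoter sequences are shown for 4 genes that passed a test against WT and had a window, Rab3b, Cplx1, Napb and Syp, and for Syn1, whose promoter carries well-known neuronal elements. RefSeq windows (assembly GRCm38.p6, 250 bases before the annotated start) were found for 28 of the 36 genes and for none of Syn3, Syt4, Syt5, Syt7, Snap25, Vamp2, Dnajc5 and Rims2. Each printed stretch runs in the gene's direction, 5′ to 3′, and ends before the first base of any transcript of the gene in GENCODE vM21. It lies at chr4:108878820-108879062 (+ strand) for Rab3b, chr5:108550028-108550277 (- strand) for Cplx1, chr2:148732468-148732670 (- strand) for Napb, chrX:7638330-7638470 (+ strand) for Syp and chrX:20921005-20921168 (- strand) for Syn1. Capitals mark GC boxes (GGGCGG or its reverse, CCGCCC), the core of the RE1 element bound by REST (TTCAGCACC) and the cAMP response element (TGACGTCA).
Rab3b: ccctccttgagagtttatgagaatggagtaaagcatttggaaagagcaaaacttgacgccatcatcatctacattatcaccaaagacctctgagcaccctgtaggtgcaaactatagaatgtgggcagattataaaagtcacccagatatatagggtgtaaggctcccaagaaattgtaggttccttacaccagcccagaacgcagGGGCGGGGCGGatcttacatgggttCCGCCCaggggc
Cplx1: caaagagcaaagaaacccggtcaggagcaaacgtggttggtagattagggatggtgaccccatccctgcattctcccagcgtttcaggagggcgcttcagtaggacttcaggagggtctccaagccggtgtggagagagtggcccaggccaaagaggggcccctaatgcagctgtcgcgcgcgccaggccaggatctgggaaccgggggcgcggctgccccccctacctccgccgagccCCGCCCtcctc
Napb: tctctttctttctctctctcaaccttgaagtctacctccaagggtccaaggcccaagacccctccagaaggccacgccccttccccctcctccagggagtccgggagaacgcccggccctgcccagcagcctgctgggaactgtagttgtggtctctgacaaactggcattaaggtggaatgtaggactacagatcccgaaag
Syp: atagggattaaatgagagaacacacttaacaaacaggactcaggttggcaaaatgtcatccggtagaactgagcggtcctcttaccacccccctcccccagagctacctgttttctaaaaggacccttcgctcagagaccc
Syn1: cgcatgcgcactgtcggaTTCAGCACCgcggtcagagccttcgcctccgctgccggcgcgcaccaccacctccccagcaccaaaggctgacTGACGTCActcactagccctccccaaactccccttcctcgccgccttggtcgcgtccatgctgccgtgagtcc
The Rab3b stretch held 3 GC boxes, 2 of them overlapping, the Cplx1 stretch held 1, and those of Napb and Syp held none of the 3 motifs. Syn1 had the RE1 core 232 bases and the cAMP response element 159 bases before its RefSeq start, and no other window of the set held either. Among all 32851 windows, 0.301% held the RE1 core and 1.55% the cAMP response element on either strand. GC boxes were in 22 of the 36 windows of these genes (61.1%), which belonged to 21 genes, and in 32.7% of all windows. The median GC content was 59.8% in the windows of the set and 52.4% in all. Of 3 other motifs searched on both strands, CCAAT was in 9 of the 36 windows (33.8% of all windows), TATAAA in 3 (12.4%) and CACGTG in 3 (6.02%). These matches describe letters, and whether the shares differ was not tested.

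The first comparison, between the sorted nuclei of WT mice, addressed in which sorted fraction RNA of the release machinery was higher. Of the 36 genes, 27 were higher and 1 was lower in NeuN+ by edgeR's quasi-likelihood test (adjusted p under 0.05, log2 difference beyond 1 in either direction). These limits called 42.8% of all 33523 genes tested, 21.3% as higher and 21.5% as lower. The median log2 difference of the 36 genes was 2.08, whereas that of all genes tested was -0.01. With no limit on size, 32 genes were higher and 3 lower (36% and 36.2% of all genes). Sv2a missed the test (log2 difference 0.19 ± 0.09 SE, adjusted p = 0.0536). Fewer cells that express a gene and less RNA per cell cannot be told apart in such samples. Rbfox3, the gene of the sort marker, was itself at 1459 ± 26.6 CPM in WT NeuN+ and 90.0 ± 8.81 in WT NeuN- (SD). Its log2 difference was 4.02 ± 0.13 SE. How much of the RNA of these genes in NeuN- came from neuronal nuclei was not tested.

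The calcium sensor gene Syt1 had the largest difference of the set. It was at 2442, 2180.4 and 2247 CPM in the WT NeuN+ libraries and at 131, 161 and 167 in the WT NeuN- libraries. Every NeuN+ library was far above every NeuN- library, 15.0-fold on the fitted means (log2 difference 3.91 ± 0.12 SE, adjusted p = 5.20e-18 by edgeR). The vesicle glycoprotein gene Sv2b followed with 439.7, 411 and 395 CPM against 26.1, 34.0 and 32.1, and then Syt7, a calcium sensor of slow release, with a log2 difference of 3.54 ± 0.09. Slc17a7, the main vesicular glutamate transporter of hippocampal principal neurons, was 9.16-fold higher in NeuN+.

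Vesicle membrane genes spread over a wide range. Syp, which encodes the abundant vesicle protein synaptophysin, was 5.98-fold higher in NeuN+, Sv2c 7.13-fold and Syngr1 1.62-fold. Sv2a, the target of the antiepileptic drug levetiracetam, was at 73.1, 77.1 and 75.1 CPM in NeuN+ and at 71.1, 63.5 and 63.0 in NeuN-. The Sv2a libraries of the 2 cell types did not overlap but lay close together. Of the level per exon kilobase of the 3 Sv2 genes, Sv2a made up 23.2% ± 1.27 (SD, n = 3) in WT NeuN+ and 76.9% ± 3.17 in WT NeuN-, whereas Sv2b made up 70.8% ± 1.34 and 19.9% ± 3.11.

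Synapsins, which tie vesicles to actin and to each other, were higher in NeuN+ to unequal degrees, with log2 differences of 2.29 ± 0.06 for Syn1, 1.84 ± 0.06 for Syn2 and 0.48 ± 0.05 for Syn3. Timp3 on the other strand overlaps 14.1% of the exon bases of Syn3, and how the counting treated strand is not given. Among synaptotagmins, Syt4 and Syt5 were 8.81-fold and 9.72-fold higher in NeuN+ and Syt2 2.37-fold. Syt11, a synaptotagmin that does not bind calcium, went the other way. Its level was 150.2, 157 and 149 CPM in WT NeuN+ and 313, 280.0 and 266 in WT NeuN-, a log2 difference of -0.92 ± 0.07 (adjusted p = 6.73e-11). Its libraries did not overlap, and Syt11 made up 66.9% ± 4.00 of the synaptotagmin level per exon kilobase in NeuN- and 7.55% ± 0.418 in NeuN+.

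Of the SNARE genes, Snap25 was 8.47-fold higher in NeuN+ and Stx1a, a neuronal syntaxin, 2.22-fold. The vesicle SNARE gene Vamp2 was 1.71-fold higher, below the limit on size, and its relative Vamp1 was lower in NeuN+ (log2 difference -0.33 ± 0.06, adjusted p = 3.21e-05). The complexin genes Cplx1 and Cplx2 were 4.94-fold and 4.86-fold higher, the disassembly ATPase gene Nsf 4.97-fold and Napb 3.47-fold, while Dnajc5, which encodes the chaperone cysteine string protein, was 1.42-fold higher. All 3 Rab3 genes were called, with differences of 6.68-fold for Rab3c, 3.19-fold for Rab3a and 2.40-fold for Rab3b.

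The active zone genes held the 1 called gene that was lower in NeuN+. Unc13c, which encodes Munc13-3, was at 30.9, 32.8 and 24.9 CPM in WT NeuN+ and at 79.1, 79.8 and 85.6 in WT NeuN-. Its groups did not overlap, and its level in NeuN- was 2.76-fold that in NeuN+ (log2 difference -1.46 ± 0.16, adjusted p = 5.92e-08). The other 7 genes of this role were higher in NeuN+, from Unc13b (2.46-fold) and Rims2 (3.10-fold) to Rims1 (7.29-fold), Unc13a (8.48-fold) and the scaffold gene Erc2 (9.30-fold). The large scaffolds Bsn and Pclo differed 5.92-fold and 3.70-fold. The share of Unc13c in the Unc13 level per exon kilobase was 63.1% ± 0.580 in WT NeuN- and 9.86% ± 1.45 in WT NeuN+.

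**Figure D1:**
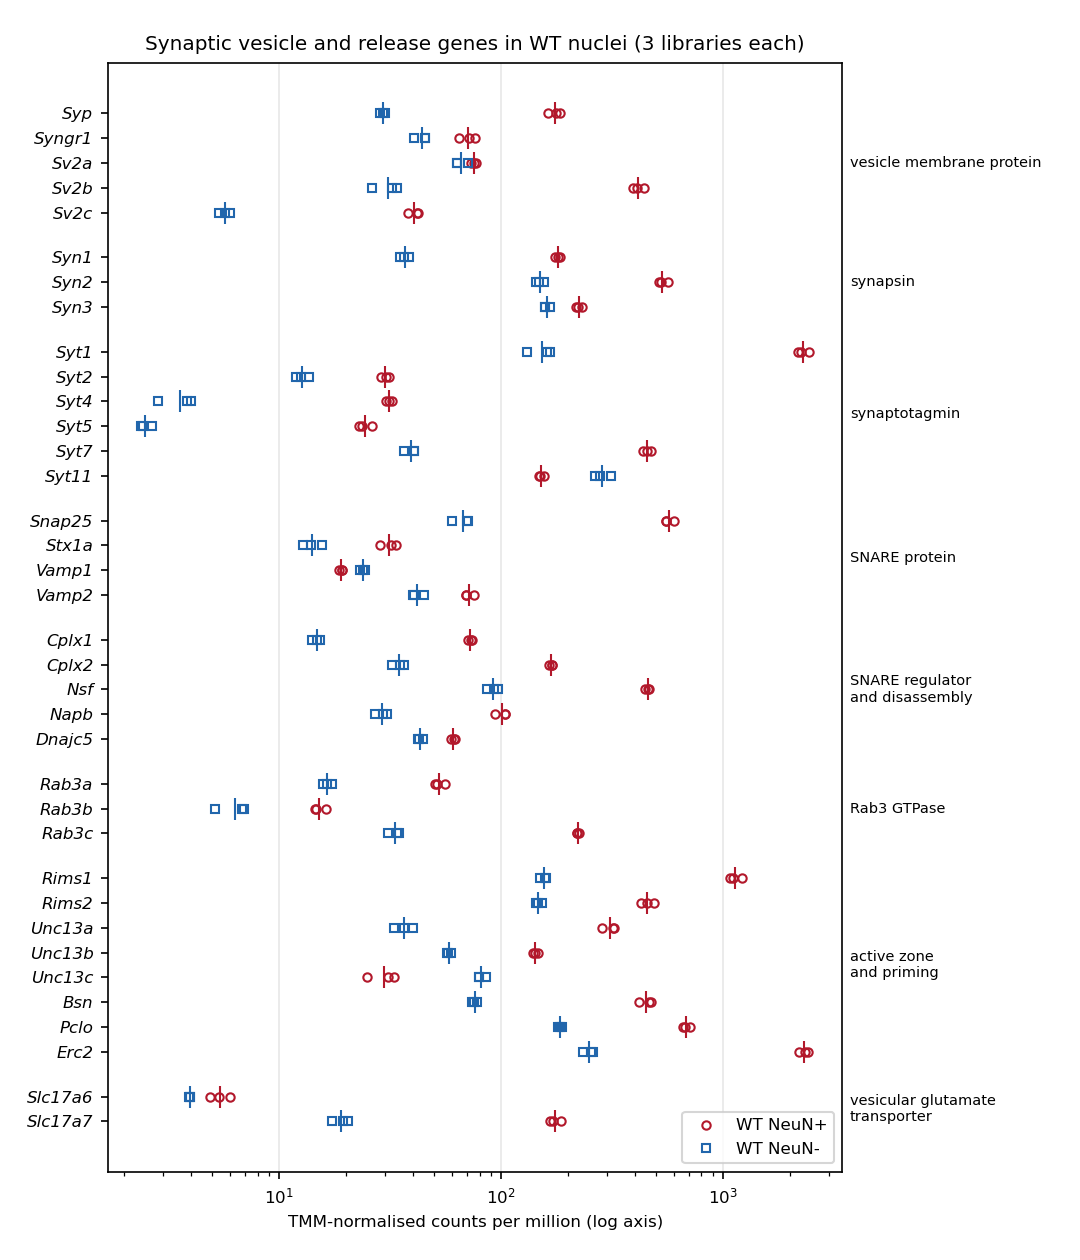
Counts per 1000000 of the 36 genes in the 3 WT NeuN+ libraries (red circles) and the 3 WT NeuN- libraries (blue squares), grouped by role, on a log axis, with the mean as a tick. NeuN+ libraries lie at higher values, to the right, for 33 genes, Syt1 at 2180.4 to 2442 against 131 to 167, and at lower values for Unc13c, Syt11 and Vamp1.

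Levels of different genes were compared per exon kilobase. In WT NeuN+, Syt1 stood first with 275 CPM per exon kilobase, followed by Erc2 with 238, Rims1 with 154, Snap25 with 83.9 and Syn2 with 75.9, and the libraries of these neighbours did not overlap. The lowest levels per exon kilobase were those of Vamp1 (1.86) and Slc17a6 (0.999), the glutamate transporter gene of mainly subcortical neurons. In WT NeuN-, the order began with Syt11 at 55.0 and Erc2 at 25.6, followed by Syn2 at 21.2 and Rims1 at 21.1, which overlapped. Of the 35 pairs of neighbours in each order, 15 overlapped in WT NeuN+ and 18 in WT NeuN-. Exon length came from the merged annotation, so intron reads of unspliced RNA are not accounted for.

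**Figure D2:**
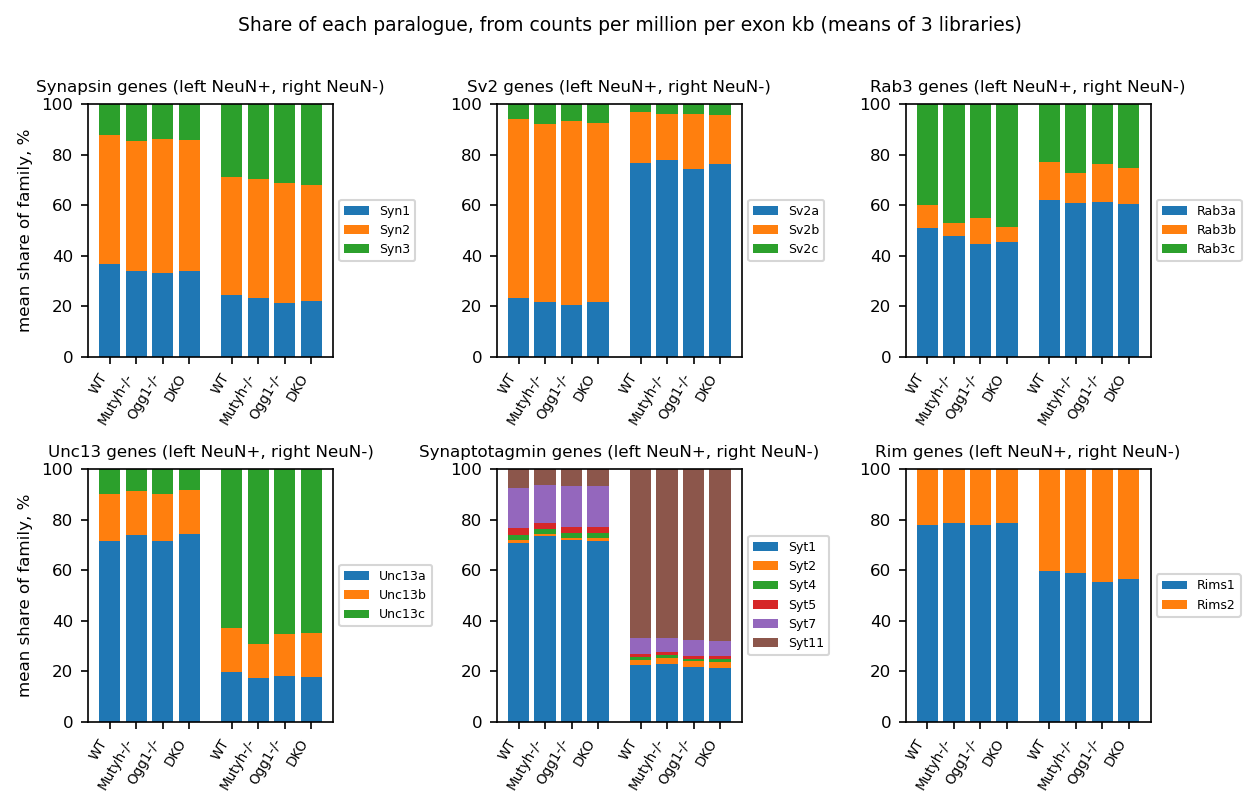
Mean share of each paralogue in its family, in percent of summed counts per 1000000 per exon kilobase, for 4 genotypes in NeuN+ and in NeuN-, each bar the mean of 3 libraries with no error drawn. Sv2a, Unc13c and Syt11 hold most of their families in WT NeuN- (76.9%, 63.1% and 66.9%) and less of them in WT NeuN+ (23.2%, 9.86% and 7.55%).

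The second set of comparisons addressed how each knockout differed from WT within NeuN+ nuclei. A gene was called by edgeR's quasi-likelihood test at an adjusted p under 0.05 where the log2 fold change lay beyond 0.5 in either direction. In each knockout 1 of the 36 genes was called, always as lower: Rab3b in Mutyh-/-, Vamp2 in Ogg1-/- and Rab3b in DKO. The same limits called 0.428% (Mutyh-/-), 0.488% (Ogg1-/-) and 0.239% (DKO) of the 30132 genes tested. With no limit on size, where 0.77% (Mutyh-/-), 1.03% (Ogg1-/-) and 0.455% (DKO) of all genes passed, Cplx1 was also lower and Syn3 higher in Mutyh-/-, and Napb was lower in Ogg1-/- and in DKO. The 3 comparisons share their WT libraries, and CPM are from here on normalised within one cell type.

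Rab3b encodes a vesicle GTPase of the Rab3 family, known from endocrine cells and some interneurons. In NeuN+ it was at 13.4, 15.0 and 13.5 CPM in WT, 6.87, 6.16 and 7.78 with Mutyh-/-, 13.5, 11.6 and 12.5 with Ogg1-/- and 5.90, 5.87 and 7.73 with DKO. All libraries labelled Mutyh-/- or DKO were thus below all of WT and Ogg1-/-, and the last 2 groups overlapped. Rab3b fell by 1.00 ± 0.11 (SE) on the log2 scale in Mutyh-/- (50.2% lower, adjusted p = 0.000140) and by 1.10 ± 0.11 in DKO (53.4% lower, adjusted p = 5.79e-05). In Ogg1-/- the log2 difference was -0.16 ± 0.10, with a 95% interval of -0.38 to 0.06.

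Between knockouts, Rab3b was the 1 gene of the set called in NeuN+. It was lower in DKO than in Ogg1-/- (log2 -0.94 ± 0.11, adjusted p = 0.000152) and higher in Ogg1-/- than in Mutyh-/- (log2 0.84 ± 0.11, adjusted p = 0.000415), where 0.216% and 0.421% of all genes were called. DKO and Mutyh-/- differed by -0.10 ± 0.11, with a 95% interval of -0.33 to 0.14. Rab3b held 9.29% ± 0.280 of the Rab3 level per exon kilobase in WT NeuN+, 5.47% ± 1.07 in Mutyh-/- and 5.63% ± 1.09 in DKO. A gene on the other strand, 8030443G20Rik, overlaps 8.99% of its exon bases.

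Rab3b (GRCm38 chr4:108879063-108943324) lies 7.86 Mb from Mutyh, downstream of the promoter stretch printed above. Within 10 Mb of Mutyh, 17 of 332 tested genes were called in Mutyh-/- NeuN+ (5.12%, against 0.376% elsewhere). In DKO NeuN+ 12 were called (3.61%, against 0.201%) and in Ogg1-/- NeuN+ 1 (0.301%, against 0.490%). Within 1 Mb of Rab3b, Scp2 and Zyg11a were called among 43 genes tested in Mutyh-/-, and 0 in DKO, where 0.428% and 0.239% of all genes were called. By edgeR 10 of the 43 in Mutyh-/- and 11 in DKO had an unadjusted p under 0.05. At that limit 9.33% of all genes were higher and 9.07% lower in Mutyh-/-, and 5.8% and 7.44% in DKO. The part of this position in the Rab3b values was not tested. The summed level of 7 inhibitory neuron markers in NeuN+ was 145 to 157 CPM in WT, 97.7 to 133 with Mutyh-/-, 126 to 145 with Ogg1-/- and 120.4 to 127 with DKO. Of these markers, 7, 5 and 7 had values below WT in the 3 knockouts, Lhx6 in Mutyh-/- passed the test, and their part in the Rab3b values was not tested.

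Vamp2, the vesicle SNARE of most central synapses (chr11:69088490-69092384), was at 63.8, 64.1 and 69.9 CPM in WT, 56.4, 58.7 and 45.3 with Mutyh-/-, 50.9, 45.3 and 41.5 with Ogg1-/- and 50.0, 50.6 and 40.5 with DKO in NeuN+. No knockout library reached the lowest WT library. Vamp2 fell by 0.52 ± 0.11 on the log2 scale in Ogg1-/- (30.4% lower, adjusted p = 0.0415). Its log2 differences in Mutyh-/- (-0.30 ± 0.11, adjusted p = 0.166) and DKO (-0.49 ± 0.11, adjusted p = 0.0798) did not pass. The difference in DKO passed the adjusted p in 4 of 19 alternatives, among them DESeq2 (adjusted p = 0.00108), the edgeR fit of only 2 genotypes (0.0115) and the fit without Mutyh-/- replicate 3 (0.0127). The call in Ogg1-/- was lost when any one WT library was left out (adjusted p = 0.0887, 0.158 and 0.155 by edgeR without replicates 1, 2 and 3). It was also lost without Ogg1-/- replicate 2 (0.189) or 3 (0.189), Mutyh-/- replicate 1 (0.0527) or DKO replicate 1 (0.0571).

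Rab3a, the major Rab3 of central synapses, was at 46.1, 51.5 and 47.6 CPM in WT, 39.9, 43.9 and 32.3 with Mutyh-/-, 37.4, 34.4 and 31.0 with Ogg1-/- and 35.5, 36.4 and 28.4 with DKO in NeuN+. Again every knockout library was below every WT library. The log2 difference of Rab3a was -0.32 ± 0.12 with Mutyh-/- (adjusted p = 0.170), -0.50 ± 0.12 with Ogg1-/- (adjusted p = 0.0660) and -0.54 ± 0.12 with DKO (adjusted p = 0.0780), and none passed. Both of the latter were near the limit: Rab3a passed the adjusted p in 7 of 19 alternatives for Ogg1-/- and in 6 for DKO, among them DESeq2 (adjusted p = 0.000940 and 0.000530) and the edgeR fit of only 2 genotypes (0.000243 and 0.0114).

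Among the SNARE regulators, Napb was at 95.2, 96.5 and 87.0 CPM in WT, 79.0, 81.8 and 77.1 with Mutyh-/-, 78.4, 78.5 and 71.6 with Ogg1-/- and 79.0, 75.1 and 67.7 with DKO in NeuN+. The knockout libraries lay below all WT libraries. Napb fell by 0.29 ± 0.06 in Ogg1-/- (adjusted p = 0.0348) and by 0.33 ± 0.06 in DKO (adjusted p = 0.0240) in log2 units, whereas in Mutyh-/- the difference of -0.23 ± 0.06 did not pass (adjusted p = 0.0868). By edgeR the result in Ogg1-/- was lost without WT replicate 1 or 2, Mutyh-/- replicate 1 or Ogg1-/- replicate 1, 2 or 3 (adjusted p up to 0.206), and that in DKO without WT replicate 1 or 2 or DKO replicate 2 or 3 (adjusted p up to 0.220).

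Cplx1, a clamp of SNARE complexes, was at 64.9, 68.4 and 68.2 CPM in WT, 58.8, 55.6 and 47.7 with Mutyh-/-, 63.9, 59.6 and 58.1 with Ogg1-/- and 55.9, 58.4 and 54.7 with DKO in NeuN+. Its knockout libraries were likewise below WT. Cplx1 fell by 0.32 ± 0.07 in Mutyh-/- (adjusted p = 0.0393), and its differences of -0.15 in Ogg1-/- and -0.25 in DKO did not pass. The Cplx1 result was lost without WT replicate 1, 2 or 3, Mutyh-/- replicate 2, Ogg1-/- replicate 1 or 2 or DKO replicate 2, and when only 2 genotypes were fitted (adjusted p up to 0.193). All 5 SNARE regulator genes had fitted values below WT in each knockout, from -0.02 for Nsf in Mutyh-/- to -0.35 ± 0.11 for Cplx2 in Ogg1-/- (adjusted p = 0.174).

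**Figure D3:**
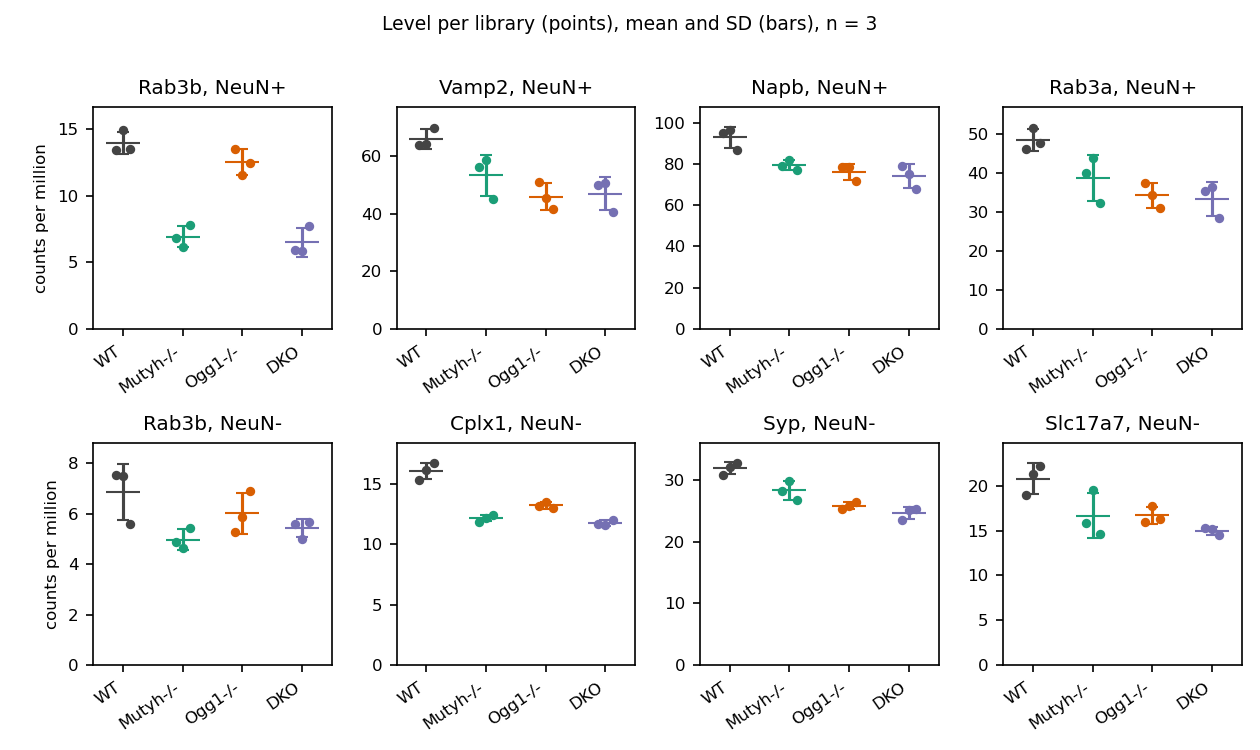
Counts per 1000000 in each library (points) with mean and SD (n = 3) by genotype, for Rab3b, Vamp2, Napb and Rab3a in NeuN+ and for Rab3b, Cplx1, Syp and Slc17a7 in NeuN-. Rab3b in NeuN+ is at 5.87 to 7.78 in Mutyh-/- and DKO and at 11.6 to 15.0 in WT and Ogg1-/-.

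Synapsins differed in direction. Syn3 was at 199, 206 and 216 CPM in WT, 248, 257 and 234 with Mutyh-/-, 222, 227 and 220.3 with Ogg1-/- and 221, 241 and 236 with DKO in NeuN+. All knockout libraries were above all WT libraries, but only the difference in Mutyh-/- passed (log2 0.25 ± 0.05, adjusted p = 0.0306), with adjusted p = 0.402 and 0.147 in the other 2 by edgeR. Syn3 was the only gene of the set to rise past the test in any knockout, and its result was lost without WT replicate 1 or 2, Mutyh-/- replicate 1 or 2 or Ogg1-/- replicate 1 (adjusted p up to 0.142). Syn1 was at 161, 166 and 171 CPM in WT, 157, 162 and 146 with Mutyh-/-, 153, 146 and 139.7 with Ogg1-/- and 151, 152 and 146 with DKO, with log2 differences of -0.10, -0.18 and -0.15, none past the test. Syn2 differed from WT by at most 0.04 on the log2 scale.

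In the other roles no gene passed the test in NeuN+. Active zone genes had log2 differences between -0.16 (Unc13c in DKO) and 0.18 (Erc2 in Mutyh-/-, adjusted p = 0.0936). Synaptotagmins ranged from -0.18 (Syt5 in Ogg1-/-) to 0.15 (Syt1 in Mutyh-/-, adjusted p = 0.127). Of the vesicle membrane genes, Sv2a had the smallest p, with -0.20 ± 0.05 in Ogg1-/- (adjusted p = 0.0850), and Sv2c the highest value, 0.38 ± 0.14 in Mutyh-/- (adjusted p = 0.191). The 2 glutamate transporter genes lay between -0.15 and 0.03. In DKO the 95% interval was -0.13 to 0.13 for Bsn and -0.44 to 0.33 for the low Slc17a6, which shows what these libraries could resolve.

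Over all 36 genes in NeuN+, the log2 difference was below 0 for 21 (Mutyh-/-), 19 (Ogg1-/-) and 25 (DKO), against 51.9%, 47.8% and 50.1% of all genes tested. The medians were -0.02, -0.04 and -0.07, and those of all genes tested were -0.01, 0.01 and 0.00. At an unadjusted p under 0.05, 8 (Mutyh-/-), 14 (Ogg1-/-) and 14 (DKO) of the 36 were lower, where 9.07%, 7.26% and 7.44% of all genes were, and 5 (Mutyh-/-), 2 (Ogg1-/-) and 3 (DKO) were higher, where 9.33%, 4.94% and 5.8% of all genes were. All knockout libraries lay below all WT libraries for 7 (Mutyh-/-), 15 (Ogg1-/-) and 12 (DKO) of the 36, and for 10.8%, 10.2% and 9.49% of all genes. These shares were not tested.

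**Figure D4:**
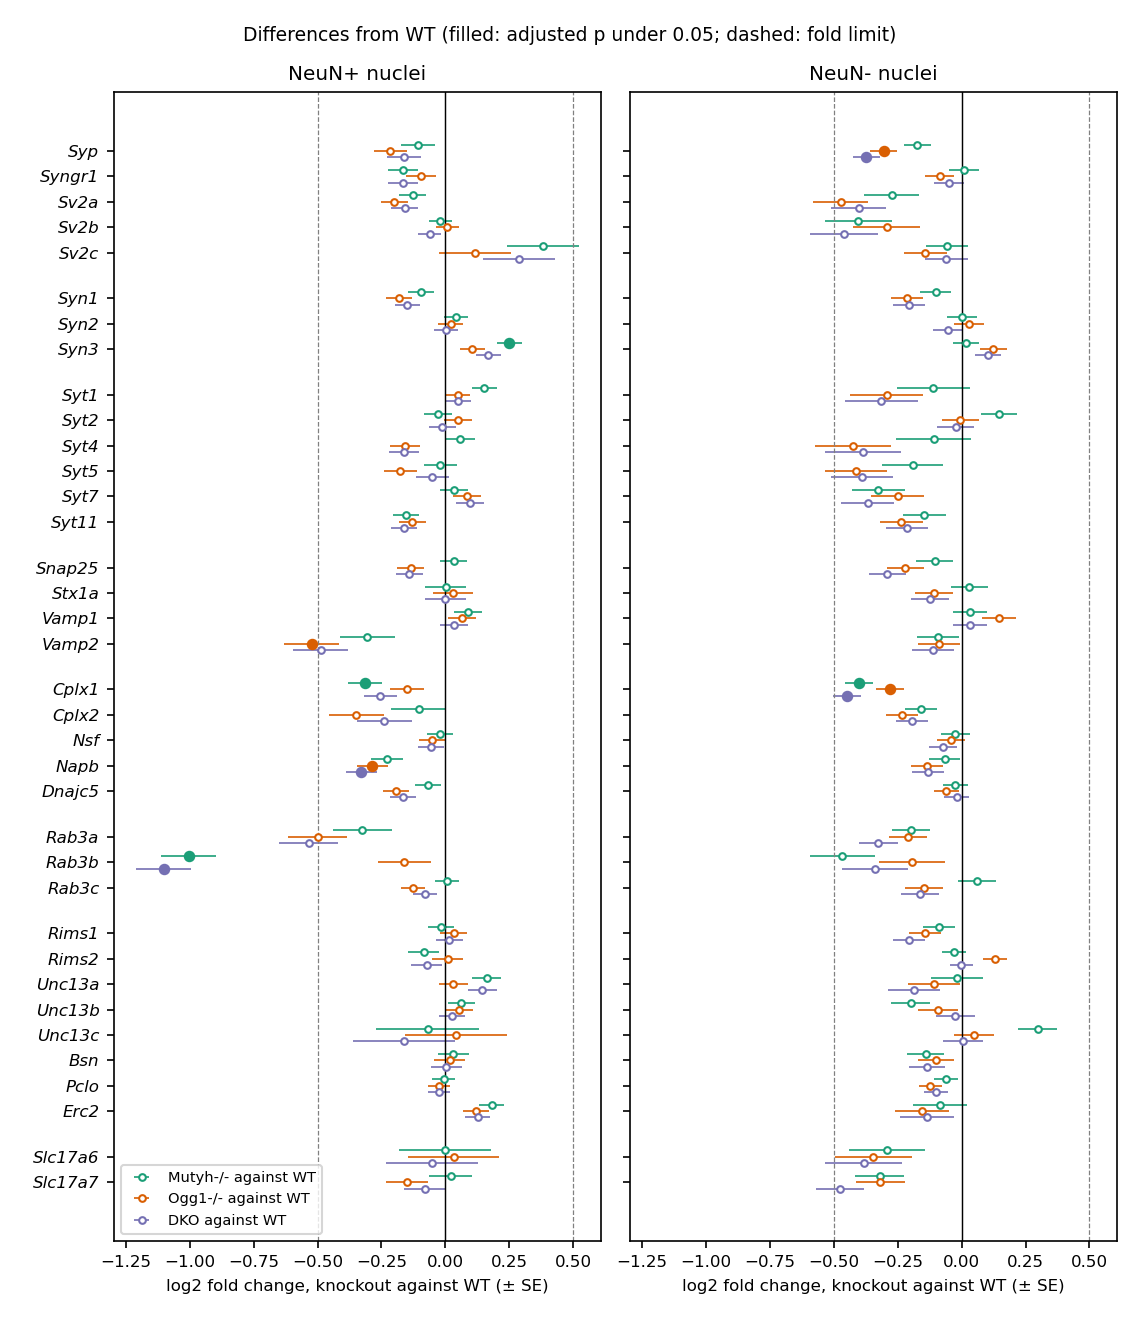
Log2 fold change against WT with its SE for the 36 genes by role in NeuN+ and NeuN-, for 3 knockouts, each from 3 against 3 libraries, with points filled where the adjusted p is under 0.05 and dashed lines at 0.5 on either side. Filled points beyond the dashed lines are Rab3b in Mutyh-/- (50.2% lower) and DKO (53.4% lower) and Vamp2 in Ogg1-/- (30.4% lower) in NeuN+.

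Differences in NeuN+ were also set against the length of the gene. The median span of the 36 genes from first to last annotated base was 62.3 kb, with Vamp2 (3.90 kb) and Rab3a (4.00 kb) the shortest and Erc2 (856 kb) the longest. Across the 36 genes, which share their libraries, Spearman's rho between span and log2 fold change was 0.44 (Mutyh-/-), 0.69 (Ogg1-/-) and 0.53 (DKO). Over all genes with a span it was -0.04, 0.00 and -0.06, and over protein-coding genes 0.07, 0.17 and 0.09. The 18 shorter genes had medians of -0.10, -0.17 and -0.16, with 13, 14 and 16 of them below 0. The 18 longer genes had medians of 0.02, 0.03 and 0.00, with 8, 5 and 9 below 0. Protein-coding genes no longer than the same median were below 0 in 55.2, 54.0 and 54.2% of cases and longer ones in 48.4, 41.6 and 44.4%. Exon length gave a rho of 0.62, 0.66 and 0.65 among the 36, and its rho over all genes was not computed. In NeuN- the rho with span was 0.31, 0.37 and 0.39 among the 36. Over all genes with a span it was 0.01, 0.05 and 0.11 there, and over protein-coding genes 0.08, 0.10 and 0.15. The rho with exon length among the 36 was 0.40, 0.49 and 0.53 in NeuN-.

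**Figure D5:**
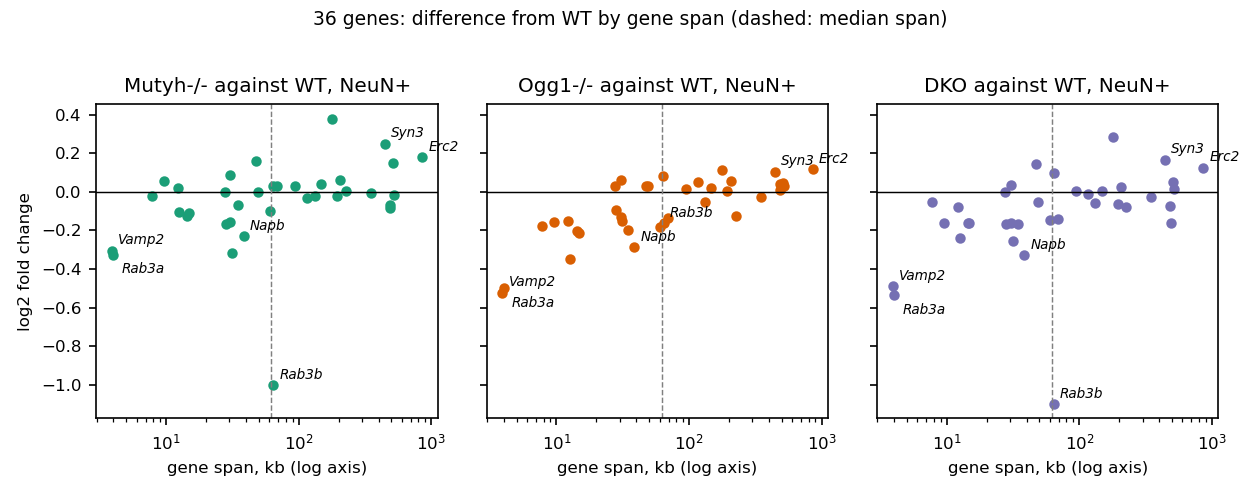
Log2 fold change against WT in NeuN+ by gene span in kb (log axis) for the 36 genes in each knockout, with the median span of 62.3 kb dashed. In Ogg1-/- the shortest genes, Vamp2 and Rab3a, lie at -0.52 and -0.50 and the longest, Erc2, at 0.12.

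Genes of cytosolic ribosomal proteins were also mostly below WT in NeuN+. For 77 of them the median log2 fold change in NeuN+ was -0.18 (Mutyh-/-), -0.35 (Ogg1-/-) and -0.28 (DKO), and 67, 76 and 76 of them were below 0. In Ogg1-/- 10 passed the test as lower, where 1.03% of all genes passed in either direction. Their summed level was 966 to 990.2 CPM in WT, 858 to 978 with Mutyh-/-, 759 to 878 with Ogg1-/- and 773 to 904 with DKO, and its part in the values of Vamp2, Rab3a and Napb was not tested.

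In NeuN- nuclei 0 genes of the set were called in each knockout by edgeR, where 0.213% (Mutyh-/-), 0.235% (Ogg1-/-) and 0.119% (DKO) of the 31863 genes tested were called, and DESeq2 with the same limits also called 0. At an unadjusted p under 0.05, 10, 17 and 18 of the 36 were lower and 1, 3 and 0 higher, where 6.8%, 6.04% and 6.25% and 6.72%, 5.64% and 5.74% of all genes were. With no limit on size, where 0.26%, 0.383% and 0.185% of all genes passed, Cplx1 was lower in all 3 knockouts and Syp in Ogg1-/- and DKO.

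Cplx1 was at 15.3, 16.2 and 16.7 CPM in WT, 11.9, 12.2 and 12.4 with Mutyh-/-, 13.2, 13.5 and 13.0 with Ogg1-/- and 11.7, 11.6 and 12.1 with DKO in NeuN-. All 9 knockout libraries lay below all 3 WT libraries. On the log2 scale Cplx1 fell by 0.40 ± 0.05 with Mutyh-/- (24.4% lower, adjusted p = 0.00880), by 0.28 ± 0.05 with Ogg1-/- (adjusted p = 0.0484) and by 0.45 ± 0.05 with DKO (26.7% lower, adjusted p = 0.00453). The Cplx1 result with Ogg1-/- was lost without WT replicate 1, 2 or 3, Mutyh-/- replicate 1 or 2, Ogg1-/- replicate 1, 2 or 3 or DKO replicate 1 or 2, and with median-ratio size factors or with no filter on low counts or with the replicate number as a block (adjusted p up to 0.235), that with Mutyh-/- without WT replicate 2 or 3 or Mutyh-/- replicate 1 (adjusted p up to 0.0633) and that with DKO when only 2 genotypes were fitted (adjusted p up to 0.0805). Its paralogue Cplx2 differed by -0.16, -0.23 and -0.19, with a smallest adjusted p = 0.163.

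Syp was at 30.9, 32.2 and 32.7 CPM in WT, 28.2, 29.8 and 26.8 with Mutyh-/-, 25.3, 25.8 and 26.4 with Ogg1-/- and 23.5, 25.1 and 25.3 with DKO in NeuN-. Here too no knockout library reached the lowest WT library. Syp fell by 0.30 ± 0.05 in Ogg1-/- (adjusted p = 0.0251) and by 0.37 ± 0.05 in DKO (adjusted p = 0.0105) in log2 units, and differed by -0.17 ± 0.05 in Mutyh-/- (adjusted p = 0.204). The Syp result in Ogg1-/- was lost without WT replicate 1, 2 or 3, Mutyh-/- replicate 1 or Ogg1-/- replicate 1, 2 or 3 (adjusted p up to 0.156), and that in DKO without WT replicate 2 or 3, and when only 2 genotypes were fitted (adjusted p up to 0.0840). A gene on the other strand, Gm14703, overlaps 16.8% of the exon bases of Syp.

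Further genes of the set had low values in NeuN- that did not pass. Slc17a7 was at 18.9, 21.3 and 22.2 CPM in WT and 15.2, 15.1 and 14.5 with DKO in NeuN-, a log2 difference of -0.48 ± 0.10 (adjusted p = 0.0713). Sv2a was at 77.4, 69.7 and 68.7 CPM in WT and 52.8, 48.5 and 54.3 with Ogg1-/- (-0.47 ± 0.11, adjusted p = 0.106). In neither gene did the groups overlap. In DKO, Rab3a (-0.33 ± 0.07, adjusted p = 0.120) and Snap25 (-0.29 ± 0.07, adjusted p = 0.162) were also below WT. Syt7, the synaptotagmin gene with the smallest p, was at 39.6, 44.3 and 44.2 CPM in WT and 31.8, 31.1 and 36.4 with DKO (-0.37 ± 0.10, adjusted p = 0.211), again without overlap. Unc13c, with more RNA in WT NeuN- than in NeuN+, had the highest value in NeuN-, at 86.2, 87.7 and 93.4 CPM in WT and 121, 110.3 and 96.5 with Mutyh-/- (0.30 ± 0.08, adjusted p = 0.161).

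Rab3b in NeuN- was at 7.55, 7.49 and 5.60 CPM in WT, 4.88, 4.63 and 5.43 with Mutyh-/-, 5.28, 5.86 and 6.91 with Ogg1-/- and 5.61, 5.01 and 5.67 with DKO. Only with Mutyh-/- did all libraries lie below WT. None of the differences of -0.47 ± 0.13, -0.19 ± 0.13 and -0.34 ± 0.13 passed (adjusted p = 0.176, 0.613 and 0.331).

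Over the set in NeuN-, 28 (Mutyh-/-), 31 (Ogg1-/-) and 33 (DKO) of the 36 genes were below WT, against 51.2%, 49.8% and 48.5% of all genes tested. Libraries of the knockouts lay wholly below WT for 11, 16 and 14 of them, against 10.2%, 10.7% and 9.15% of all genes. The medians were -0.10, -0.14 and -0.17, where those of all genes were -0.01, 0.00 and 0.01. Leaving out WT replicate 3 moved the Mutyh-/- median to -0.06, and the DKO median ran from -0.22 without DKO replicate 3 to -0.12 without DKO replicate 1. The 6 neuronal markers also had values below WT in NeuN-, with medians of -0.16, -0.24 and -0.29 and all 6 below 0 each time. Their sum there was 757 to 876 CPM in WT and 669.7 to 833 with Mutyh-/-. It was 652 to 762 with Ogg1-/- and 609 to 769 with DKO. In NeuN+ the medians of these markers were 0.08, 0.12 and 0.08. Sums of dentate granule, CA1 pyramidal and inhibitory neuron markers in NeuN- overlapped WT in every knockout, while that of CA3 pyramidal markers lay wholly below it. Choroid plexus markers summed to 32.4 to 57.4 CPM in WT NeuN- and 17.1 to 20.8 with Mutyh-/-. With Ogg1-/- their sum was 8.36 to 90.3 and with DKO 6.40 to 198. The sums of other lists in NeuN- stood as follows. Oligodendrocyte markers summed to 6491 to 7239 CPM in WT, 5983 to 7370.0 with Mutyh-/-, 5510.5 to 6127 with Ogg1-/- and 4913 to 6067 with DKO, so that Ogg1-/- and DKO lay wholly below WT, and 6 astrocyte markers summed to 3038 to 3615 CPM in WT, 3100.0 to 4061 with Mutyh-/-, 3547 to 4465 with Ogg1-/- and 3786 to 3946 with DKO, with DKO wholly above WT. The 77 cytosolic ribosomal protein genes summed to 1247 to 1265 CPM in WT, 1091 to 1219 with Mutyh-/-, 1066 to 1136 with Ogg1-/- and 1029.8 to 1204 with DKO, wholly below WT in each knockout. The part of these lists in the values of the 36 genes was not tested.

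Whether a knockout acted differently in the 2 cell types was tested by an interaction term in an edgeR fit of all 24 libraries. For each knockout 0 genes of the set passed, where 0.0239% (Mutyh-/-), 0.0537% (Ogg1-/-) and 0.0537% (DKO) of all 33523 genes did, and DESeq2 passed 0, 0 and 2, the latter Syt7 and Rab3b. At an unadjusted p under 0.05, 10, 7 and 14 of the 36 passed, against 8.44%, 7.07% and 9.21% of all genes. The smallest p belonged to Syn3 for Mutyh-/- (effect in NeuN+ minus effect in NeuN- 0.22 ± 0.07, adjusted p = 0.349), Vamp2 for Ogg1-/- (-0.42 ± 0.14, adjusted p = 0.525) and Rab3b for DKO (-0.75 ± 0.18, adjusted p = 0.142). Whether the falls of Rab3b and Vamp2 in NeuN+ differed from their values in NeuN- depended on the fit, as given in the closing section.

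The remaining comparisons between knockouts called 0 genes of the set by edgeR and by DESeq2. For DKO against Mutyh-/- in NeuN+, 0.0896% of all genes were called, and 2 of the 36 had an unadjusted p under 0.05 (6.65% of all genes). For the pairs in which Rab3b was called, those numbers were 1 (4.14%) for DKO against Ogg1-/- and 11 (12.4%) for Ogg1-/- against Mutyh-/-. In NeuN-, 0.132%, 0.104% and 0.496% of all genes were called for DKO against Ogg1-/-, DKO against Mutyh-/- and Ogg1-/- against Mutyh-/-. There 2, 6 and 5 of the 36 had an unadjusted p under 0.05, against 4.25%, 10.6% and 11.2% of all genes.

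Of 75 further presynaptic genes, among them other fusion, active zone and vesicle proteins, proton pump subunits and endocytic proteins, 74 were tested. In WT, 40 were called higher and 6 lower in NeuN+ than in NeuN-, where 21.3% and 21.5% of all genes were. Their median log2 difference was 1.23. By edgeR 0 were called in each knockout and cell type, where 0.119% to 0.488% of all genes were. Without the limit on size, 0.185% to 1.03% of all genes passed. With no limit on size, Ap2b1, a subunit of the clathrin adaptor AP2, was higher in each knockout and cell type, in NeuN+ by 0.39 ± 0.05 (Mutyh-/-), 0.30 ± 0.05 (Ogg1-/-) and 0.34 ± 0.05 (DKO) on the log2 scale and in NeuN- by 0.39 ± 0.05 (Mutyh-/-), 0.36 ± 0.05 (Ogg1-/-) and 0.35 ± 0.05 (DKO). The clathrin heavy chain gene Cltc was lower in NeuN+ with Ogg1-/- (-0.30 ± 0.06) and DKO (-0.33 ± 0.06). Sncb, which encodes β-synuclein, was lower in NeuN+ with Mutyh-/- (-0.34 ± 0.07) and DKO (-0.36 ± 0.07) and in NeuN- with DKO (-0.46 ± 0.07). The fission GTPase gene Dnm1 was lower in NeuN- with Ogg1-/- (-0.24 ± 0.04) and DKO (-0.28 ± 0.04), and Snap47 (Mutyh-/-) and the proton pump genes Atp6v1a and Atp6v0c (Ogg1-/-) were lower in NeuN+. These genes were named after their values were seen.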

How the data were processed

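The authors aligned read pairs of SMARTer Stranded Total RNA-Seq libraries to GRCm38 with HISAT2 2.1.0 and deposited raw counts per gene (Ensembl 102) made with featureCounts from properly paired alignments. How strand, overlapping genes and multimapping reads were treated is not given in the sources used here. Nuclei were pooled from animals of one genotype, with differing animal numbers in the methods, and the paper speaks of independent biological replicates in general without saying what a sequencing replicate was. Whether replicates are separate pools is therefore unclear, and p-values measure the spread between these libraries. No libraries of a group held identical counts.

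Counts were analysed with R 4.3.3 and edgeR 4.0.16 (filterByExpr, TMM, glmQLFit with robust estimation, Benjamini-Hochberg adjustment over all genes tested). The 4 genotypes were fitted together within NeuN+ (12 libraries, 30132 genes) and within NeuN- (31863 genes). All 24 libraries (33523 genes) were fitted for cell types and interactions. Calls needed an adjusted p under 0.05 and a log2 fold change beyond 0.5 in either direction for genotypes, beyond 1 for cell types and of any size for interactions. CPM are TMM-normalised, within a cell type for genotypes and marker sums and over 24 libraries for cell types, paralogue shares and levels per exon kilobase. Gene positions and exon lengths came from GENCODE vM21 and promoters from RefSeq. The scripts were tested on simulated data. The 36 genes, the other lists and the rule for naming genes (any of the 36, with values per library for genes called in a knockout, past the test in at least 2 comparisons with WT, or with the smallest p of their role, and for others of the 36 chosen after their values were seen) were chosen with earlier results of these data known. Alternatives were DESeq2 1.42.0, median-ratio size factors, other filters on low counts, fits of 2 genotypes, a replicate block, fits without 1 library and, chosen after seeing the data, no robust estimation.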

Additional observations from a re-analysis of the deposited data

How the results depend on the processing

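The cell-type comparison gave 28 called genes in every alternative, and Rab3b was called in Mutyh-/- and DKO of NeuN+ in every alternative with that limit (log2 -1.10 to -0.93 and -1.25 to -1.03). With no limit on size, the number past the test was 3 (Mutyh-/-), 2 (Ogg1-/-) and 2 (DKO) in NeuN+ and 1, 2 and 2 in NeuN-. Vamp2 in Ogg1-/- was lost with no filter on low counts, which left 0 called, and leaving out 1 library gave 0 to 1. Rab3a joined as a second called gene in Ogg1-/- and in DKO (2 called each) when only the 2 genotypes were fitted, and in DKO also with DESeq2 (2) and without robust estimation (2). Leaving out 1 library gave 1 to 2 called in DKO, the second being Rab3a without Mutyh-/- replicate 2 (adjusted p = 0.0498) or 3 (0.0111). For the interactions, DESeq2 gave 2 in DKO (Syt7 and Rab3b). Leaving out 1 library gave 0 to 1 in Mutyh-/- (Syt7 without Mutyh-/- NeuN- replicate 3) and 0 to 3 in DKO (Sv2b, Syt7 and Unc13a without DKO NeuN- replicate 3). In all other fits without 1 library the counts stayed as given. The cause of these shifts was not tested.

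The replicate number was also fitted as a block. Libraries of different genotypes with the same number did not deviate together as a whole. Their mean correlation was 0.009 in NeuN+ and 0.053 in NeuN-, against -0.002 and -0.027 for different numbers. Pairs with different numbers reached 0.475 in NeuN+ and 0.373 in NeuN-. With the same number, a correlation over 0.1 was seen in 6 of 18 pairs in NeuN+ and 7 of 18 in NeuN-. All pairs of Mutyh-/- with Ogg1-/- were among them (0.252 to 0.356 in NeuN+, 0.142 to 0.378 in NeuN-). WT with DKO was among them for replicates 1 and 3, whereas WT with Mutyh-/- replicate 3 was at -0.421 and -0.368. Of 12 pairs of NeuN+ and NeuN- libraries with the same genotype and number, 9 had a correlation over 0.1 (mean 0.213, against -0.10 for different numbers). The exceptions were WT replicates 1 (-0.050) and 2 (-0.054) and Ogg1-/- replicate 2 (0.081). WT NeuN+ replicate 1 with NeuN- replicate 2 was at 0.169, and NeuN+ replicate 2 with NeuN- replicate 1 at 0.149. In the interaction fits the block nonetheless paired WT libraries by number. With the block, Vamp2 in DKO NeuN+ passed the adjusted p (0.0153), 2 genes were called in Ogg1-/- (Vamp2 and Rab3a) and 2 in DKO (Rab3a and Rab3b) of NeuN+, and 1 gene passed the interaction in Ogg1-/- (Vamp2) and 1 in DKO (Rab3b). All other counts were the same with the block.

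Of 12 values past the test between a knockout and WT, both Rab3b values passed in all 19 alternatives and the other 10 were each lost in at least 1. Vamp2 in Ogg1-/- was lost in 8 (adjusted p up to 0.189), and Cplx1 in Ogg1-/- NeuN- in 13, the block, median-ratio factors and no filter among them (up to 0.235). Syn3 in Mutyh-/- was lost in 5 (up to 0.142), Cplx1 in Mutyh-/- NeuN+ in 8 (0.193), Napb in Ogg1-/- in 6 (0.206) and in DKO in 4 (0.220), and Syp in Ogg1-/- NeuN- in 7 (0.156). Syp in DKO NeuN- was lost in 3 (0.084), Cplx1 in Mutyh-/- NeuN- in 3 (0.0633) and Cplx1 in DKO NeuN- in 1 (0.0805). None of the 12 changed sign. The median of the 36 genes stayed below 0 in all alternatives except in Mutyh-/- NeuN+, where it ran from -0.03 to 0.00.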
